A study of Mus musculus with 4 samples.

Results

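The regions described here are the BLRP-MafG binding peaks of mouse liver that lie near genes of olfactory and vomeronasal receptors. A peak was included when its midpoint lay within 10 kb of either end of a protein-coding gene whose symbol starts with Olfr or Vmn, on chromosomes 1 to 19 of the mm10 build. This rule found 384 peaks, which are 0.574% of the 66904 peaks on these chromosomes and part of a list of 68763. They are called receptor peaks below. The study mapped, by chromatin immunoprecipitation with sequencing (ChIP-seq), where tagged MafG binds in livers of C57BL6/J mice. There were 4 libraries, 2 from livers labelled Ad BLRP MAFG, which overexpressed MafG carrying the BLRP peptide tag, and 2 from livers labelled Ad BLRP Control. Both groups were precipitated with the same antibody against the tag. No group carried tagged MafG at its native level, so sites not bound at native levels may be in the list. The labels give no age or sex of the animals, and a peak list holds no expression values against which the tissue could be checked.

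MafG belongs to the small MAF factors, which have a basic leucine zipper but no transactivation domain and bind DNA with partners such as NRF2 and BACH1. Olfactory receptors (Olfr genes) are G protein-coupled receptors of the sensory neurons of the nose, where each neuron uses a single receptor gene and keeps the others silent. Vomeronasal receptors detect pheromones and related cues in the vomeronasal organ. Those of the Vmn1r family have a coding region in a single exon, as olfactory receptors do, whereas Vmn2r receptors have a large extracellular domain encoded by several exons. All of these families lie in tandem arrays of similar genes.

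Positions of peaks are those of the deposited list, and genes are those of RefSeq on GRCm38.p6, the assembly that mm10 also denotes. The list comes from 1 BLRP-MafG collection of 20406492 tags, compared with 1 control collection whose depth, implied by the deposited folds, was 1.72e+07 tags. Whether a collection holds 1 or both libraries of its group is not known. There are therefore no replicate values, no standard deviations and no test between groups, and intervals are exact 95% intervals of the tag or peak counting alone. The normalized tag count of a peak is its BLRP-MafG signal scaled by the authors to 10000000 tags. To be listed, a peak had to exceed the control by 10-fold and its surrounding 10 kb by 4-fold.

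Sequence could be read for the few receptor peaks that overlapped a window from 250 bases before to 50 bases after a receptor gene's start, for which RefSeq windows (GRCm38.p6) were given for 1260 of the 1458 receptor genes. Of these, 9 genes had a peak overlapping such a window, and the 4 stretches below are those in which the window covered at least 189 bases of the peak. They are the peaks that such windows happened to cover, not a description of receptor peaks as a whole, and none is among the highest. The Olfr550 peak lies inside its gene model, 1307 bp from the nearer end. Capitals mark matches, on either strand, to TGACTCA (an AP-1-like core), TGACNNNGC (the core of the antioxidant response element) or TGCTGA (a MAF core). The stretches lie at chr7:102578255-102578455 on the plus strand for Olfr550, at chr17:37795299-37795495 on the plus strand for Olfr123, at chr11:59612785-59612985 on the plus strand for Olfr225, and at chr13:23184586-23184774 on the minus strand for Vmn1r220. Each is written 5′ to 3′ on the strand of its gene.
Olfr550: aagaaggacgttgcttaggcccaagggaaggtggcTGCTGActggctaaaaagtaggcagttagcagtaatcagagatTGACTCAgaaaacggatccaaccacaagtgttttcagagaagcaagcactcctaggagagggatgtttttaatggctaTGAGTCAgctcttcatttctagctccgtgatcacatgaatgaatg
Olfr123: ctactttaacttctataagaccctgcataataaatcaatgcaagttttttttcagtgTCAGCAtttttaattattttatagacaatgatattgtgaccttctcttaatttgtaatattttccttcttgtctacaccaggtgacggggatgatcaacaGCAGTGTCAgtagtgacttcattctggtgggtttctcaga
Olfr225: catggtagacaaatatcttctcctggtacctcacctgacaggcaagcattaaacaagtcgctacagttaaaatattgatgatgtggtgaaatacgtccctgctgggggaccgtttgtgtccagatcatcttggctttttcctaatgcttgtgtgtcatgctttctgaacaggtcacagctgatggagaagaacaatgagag
Vmn1r220: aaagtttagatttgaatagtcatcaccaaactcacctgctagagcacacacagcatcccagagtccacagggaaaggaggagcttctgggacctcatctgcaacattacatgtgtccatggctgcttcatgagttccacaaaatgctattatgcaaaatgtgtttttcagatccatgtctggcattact

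The Olfr550 stretch held 2 matches to the AP-1-like core and 1 to TGCTGA, under a low peak of 7.35 with 15 BLRP-MafG tags and 1 control tag. The Olfr123 stretch held TGCTGA, seen as its reverse complement TCAGCA, and the antioxidant response element core, under a peak of 13.7 with 28 tags against 0. The Olfr225 stretch held none of these letters, although its peak, of 30.9 with 63 tags against 5, was the highest of these 4. The Vmn1r220 stretch also held none, under a peak of 6.37 with 13 tags against 0. In 200 bases of RefSeq start windows of all genes, the AP-1-like core was found in 3.69% of windows, the antioxidant response element core in 8.72% and TGCTGA in 13.2%.

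A larger comparison used the central 101 bases of any peak that a start window covered whole. This held for 6 receptor peaks, the 4 above and those at the starts of AI987944 and Gm12258, which are no receptors, and for 1489 peaks in all. The AP-1-like core stood in 1 of the 6, at Olfr550, against 63 of 1489 (4.23%), and TGCTGA in 1 of the 6, against 265 (17.8%). The antioxidant response element core stood in 0 of 6, against 166 (11.1%). The longer MAF recognition element arm, which contains both the AP-1-like core and TGCTGA, stood in 0 of 6, against 21 (1.41%). Among 30 covered peaks with a normalized tag count of 50 or more, none of them a receptor peak, the arm was found in 8 (26.7%) and TGCTGA in 21 (70%). TGACTCA followed by GC also matches the antioxidant response element core, so these counts overlap. A match describes letters in the window only, and 6 peaks are too few to describe the receptor peaks as a whole.

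Receptor genes had a peak nearby in about 1 of 4 cases. Of 1458 receptor genes on chromosomes 1 to 19, 392 (26.9%) had a peak no farther than 10 kb from an end, where 71.2% of all 20665 protein-coding genes had one. The share was 27.4% for Olfr (303 of 1104 genes), 22.1% for Vmn1r (51 of 231) and 30.9% for Vmn2r (38 of 123). Gene length bears on this share, because a short gene offers less window: the median receptor gene model spans 951 bp, and that of other protein-coding genes 19555 bp. Among 296 other protein-coding genes of receptor-like model length (median 995 bp), 38.9% had a peak, at 28.8 peaks per Mb (24.4 to 33.6). Genes that share a peak are not independent, and these shares were not tested against each other.

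Measured per length of DNA, peaks were sparse around receptors. The windows around receptor ends, joined where they overlap, covered 29 Mb and held 13.2 peaks per Mb (11.9 to 14.6). Around other protein-coding genes the density was 41.9 per Mb (41.3 to 42.5), and over chromosomes 1 to 19 it was 27.5. By family it was 14.7 per Mb (13 to 16.5) around Olfr, 10.9 (8.16 to 14.3) around Vmn1r and 9.43 (6.82 to 12.7) around Vmn2r genes. The interval of Vmn1r overlapped those of Olfr and Vmn2r, while those of Olfr and Vmn2r did not overlap each other. Receptor arrays hold many near-identical copies, and how many of their bases a read can be placed on uniquely is not known here. Its part in these densities was not tested.

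**Figure D1:**
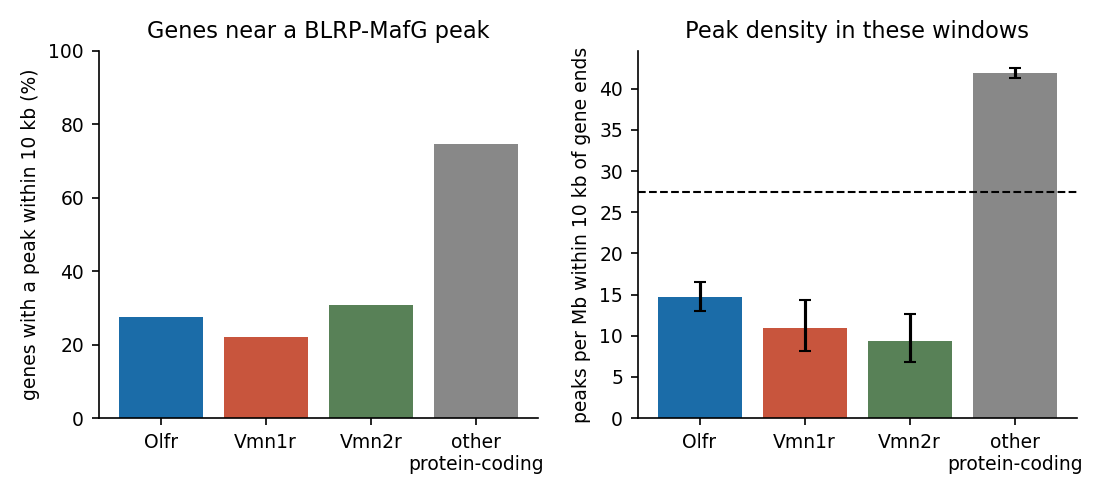
Left, share of genes with a BLRP-MafG peak within 10 kb of an end (percent), by receptor family and for other protein-coding genes; right, peaks per Mb of the joined windows within 10 kb of gene ends, with exact 95% intervals of the counts as bars and the density over chromosomes 1 to 19 (27.5 per Mb) as a dashed line. The 3 receptor families lie between 22.1% and 30.9% and below 15 peaks per Mb, and other genes at 74.6% and 41.9 per Mb.

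Around receptors the density was higher within 1 kb of an end than from 2 to 5 kb, and was higher again beyond 20 kb. Within 1 kb of receptor ends there were 84 peaks, or 18.1 per Mb (14.5 to 22.4). From 2 to 5 kb there were 98, or 10.5 per Mb (8.56 to 12.9), from 10 to 20 kb 13.9 per Mb (12 to 16.2), and from 20 to 50 kb 21 per Mb (18.7 to 23.5). Around other protein-coding genes the density was 73.1 per Mb (71.1 to 75.1) within 1 kb and 36.3 (35.4 to 37.3) from 2 to 5 kb. The ends of receptor models are often not transcript starts: 88.4% of the 1135 models of up to 1200 bp have a coding length, a multiple of 3, and in 76.1% of the receptor start windows the gene starts at an ATG, against 3.01% of the windows of other genes. Distances to a receptor are thus mostly distances to its coding region.

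Receptor peaks were mostly low and covered a wide range. Their normalized tag count ran from 4.41 to 310.2, with a median of 10.3 and quartiles of 7.35 and 24.5. Over all peaks on chromosomes 1 to 19 the median was 12.3 with quartiles of 7.84 and 24. The median receptor peak rested on 21 BLRP-MafG tags, and the median of all peaks on 25. Peaks below 10 made up 47.9% of receptor peaks (184) and 39.7% of all peaks, those from 10 to 25 made up 27.3% and 36.4%, those from 25 to 50 made up 16.7% and 13.8%, and those of 50 or more made up 8.07% and 10%. The order of the medians turned when peaks under 25 tags were left out, with 27.9 for 168 receptor peaks and 23 for all peaks. The share of low peaks, close to the limit of the peak caller, was thus higher among receptor peaks, and the share of peaks of 50 or more was lower.

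**Figure D2:**
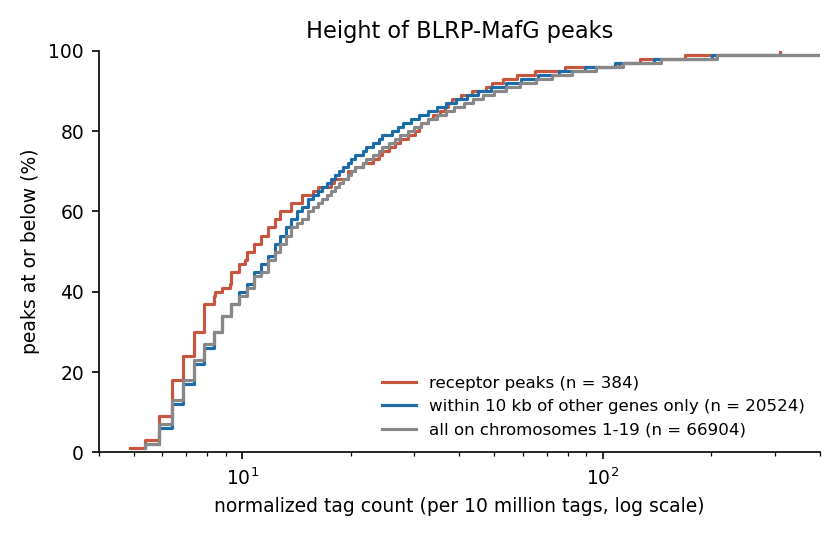
Cumulative share of peaks (percent) at or below a normalized tag count (scaled to 10000000 tags, log scale) for the 384 receptor peaks, for 20524 peaks within 10 kb of other protein-coding genes and of no receptor, and for all peaks on chromosomes 1 to 19; the axis ends at 400 and a few peaks of the latter groups are higher. The receptor curve lies above the others at low counts (47.9% against 39.7% of all peaks are below 10). It lies below that of all peaks only between about 22 and 31, and above it again at higher counts. The count at or below which 75% of peaks lie is 24.5 for receptor peaks, 24 for all peaks and 21.6 for peaks near other genes. For 90% of peaks it is 43.3, 50 and 45.1.

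By family the median normalized tag count was 10.8 for the 289 peaks nearest to an Olfr gene, 11.8 for the 52 nearest to a Vmn1r gene and 7.84 for the 43 nearest to a Vmn2r gene. The quartiles overlapped widely, being 7.35 and 24 for Olfr, 7.72 and 27.4 for Vmn1r, and 6.62 and 18.6 for Vmn2r. Peaks of 200 or more numbered 4 (1.04%), where 1.09% of all peaks reached that height, and 13 receptor peaks (3.39%) reached 100, against 3.73% of all peaks. The 1000 highest peaks included the same 4 receptor peaks (0.4%), where receptor peaks made up 0.574% of all peaks on chromosomes 1 to 19.

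Control signal at receptor peaks was low, as the peak filter requires. The control held 0 tags in 202 of them (52.6%), beside 43.9% of all peaks, and its highest count was 8. The fold over control in the authors' deposited table had a median of 25.3 for receptor peaks and 24.5 for all peaks, and 259 receptor peaks (67.4%) reached a fold of 20, beside 64.2% of all peaks. The deposited fold over the surrounding 10 kb had a median of 29.4 (quartiles 16.7 and 57.4), against 15.8 for all peaks and 10.5 for peaks near other genes only. For 24291 peaks over 50 kb from the ends of non-receptor protein-coding genes and over 10 kb from those of receptors, that median was 23.1. This lay between the values of all peaks and of receptor peaks. Receptor peaks shared this higher local fold with peaks far from the ends of protein-coding genes.

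The highest receptor peak lay in the Olfr array of chromosome 4. It was at chr4:118708203-118708403, 1106 bp upstream of Olfr1341, with a normalized tag count of 310.2 (286 to 335), or 633 tags against 1 control tag, and had rank 268 among all peaks on chromosomes 1 to 19. Its ratio to control was 534 (95.5 to 21124). The nearest other protein-coding gene, Ebna1bp2, a nucleolar protein gene, lay 80527 bp away.

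The next 3 peaks passed 200. A peak at chr17:20887440-20887640, 2176 bp downstream of the vomeronasal receptor gene Vmn1r231, had 229.8 (209 to 252), with 469 tags against 8 and a ratio of 49.5 (24.9 to 115). This was the largest control count of any receptor peak. A peak at chr2:87264478-87264678, 4268 bp upstream of Olfr1116, had 213.2 (194 to 234), with 435 tags against 3. A peak at chr19:12116578-12116778, 850 bp upstream of Olfr1428, had 204.8 (186 to 225), with 418 tags against 4. The intervals of these 3 peaks overlapped each other, and that of the Olfr1341 peak lay above all of them.

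Of the other 8 among the 12 highest, 6 were near Olfr genes. The peak at chr7:140160441-140160641, 1469 bp downstream of Olfr522, had 161.2 (144 to 180), and Sprn, a prion-like protein gene, lay 5882 bp from it. Olfr212 had a peak of 136.2 (121 to 153) inside its gene model, at chr6:116514928-116515128. Olfr1052 had one of 135.3 (120 to 152) at chr2:86296353-86296553, 1365 bp upstream. Both Olfr765, with 123 (108 to 139) at chr10:129046490-129046690, and Olfr646, with 118.6 (104 to 135) at chr7:104104054-104104254, held theirs inside the gene model. Olfr1415 had one of 112.2 (98.2 to 128) with 6 control tags, 1681 bp downstream at chr1:92489037-92489237. The vomeronasal receptor genes among these 8 were Vmn2r4, with a peak of 156.3 (140 to 174) 3233 bp upstream at chr3:64418453-64418653, and Vmn1r197, with 116.6 (102 to 132) 4697 bp downstream at chr13:22333404-22333604. At Vmn2r4 the control held 0 tags against 319. The ratio was 89.7 when counted against a floor of 3 control tags, and its exact lower limit against 0 tags was 72.5. For all of the 12 highest peaks a receptor was the nearest protein-coding gene by its ends.

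The 5 peaks nearest to a receptor's end ran from 4.9 to 30.9, and 3 of them exceeded the receptor median of 10.3. The closest lay 47 bp upstream of Olfr123, at 13.7 (9.12 to 19.8), and its sequence is given above. Peaks of 8.33 (4.85 to 13.3) and 4.9 (2.35 to 9.01) lay inside Olfr920 and Olfr1442, 74 bp and 100 bp from an end. Olfr30 had one of 21.6 (15.7 to 28.9) 77 bp inside its model, and Olfr225 one of 30.9 (23.7 to 39.5) 81 bp upstream. In the authors' table its fold over control, with 5 control tags, was 10.63, close to the limit of 10. The 84 peaks within 1 kb had a median of 9.31, and the 163 from 5 to 10 kb one of 10.8. Just inside the limit of 10 kb lay peaks of 8.33, 8.82 and 23.5 near Olfr881, Olfr875 and Olfr1110, and just outside it peaks of 37.7, 8.33 and 9.31 near Olfr522, Olfr371 and Olfr1337.

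Most receptor peaks lay between protein-coding genes. The midpoint was inside a receptor gene in 85 (22.1%), inside another protein-coding gene in 14, with 1 counted in both. It was in no protein-coding gene in 286, and whether these lay inside genes of other types was not counted. Of those inside a receptor model, 44 were in models of up to 1200 bp. Where the strand was given and the peak lay outside the nearest receptor, 111 peaks were upstream and 149 downstream of it. The median normalized tag count was 11.8 upstream, 10.3 downstream and 8.33 inside, with quartiles that overlapped.

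For nearly all receptor peaks a receptor was the nearest protein-coding gene by its ends. A non-receptor protein-coding gene had an end nearer than any receptor in 21 peaks (5.47%), and one lay within 10 kb in 37 (9.64%). The median distance was 4013 bp to the nearest receptor and 101956 bp to the nearest other protein-coding gene. No end of another protein-coding gene lay within 50 kb of 265 peaks (69%). When genes of all types, pseudogenes and non-coding RNAs included, could be nearer, the share rose from 5.47% to 13.5%. Some peaks inside a non-receptor gene still had a receptor end nearer. When a position inside a gene counted as distance 0, the share was 6.43% of 389 peaks.

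The 21 peaks nearer to another gene belonged to 16 genes and had a median of 10.8. Nlrp3, which encodes an inflammasome sensor, accounted for 3 of them, and these 3 are all the peaks in the window of Olfr222. They had 60.8, 28.9 and 12.3 and lay inside Nlrp3, 9652, 7528 and 7988 bp from Olfr222. Pfpl had 2, of 49 and 19.6, near Olfr1441. The interferon-inducible gene Ifi205 had 2, of 14.7 and 11.3, near Olfr433, and the class I-like histocompatibility gene H2-M3 had 2, of 10.8 and 6.86, near Olfr98 and Olfr99. The zinc finger genes Zfp174, Zkscan8, Zfp219 and Zfp354a had 1 each, of 11.3 or lower. The tallest of the 21 peaks were that of 60.8 at Nlrp3 and that of 49 at Pfpl. Next came a peak of 37.2 nearest to Gm16451, near Vmn1r250. The median of 10.8 stood beside 10.3 for the other 363 receptor peaks, of which 4 (1.1%) reached 200. With sets of such unequal size, their highest values were not compared. The fold over the surroundings had a median of 9.97 in these 21 peaks and 29.9 in the other 363.

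**Figure D3:**
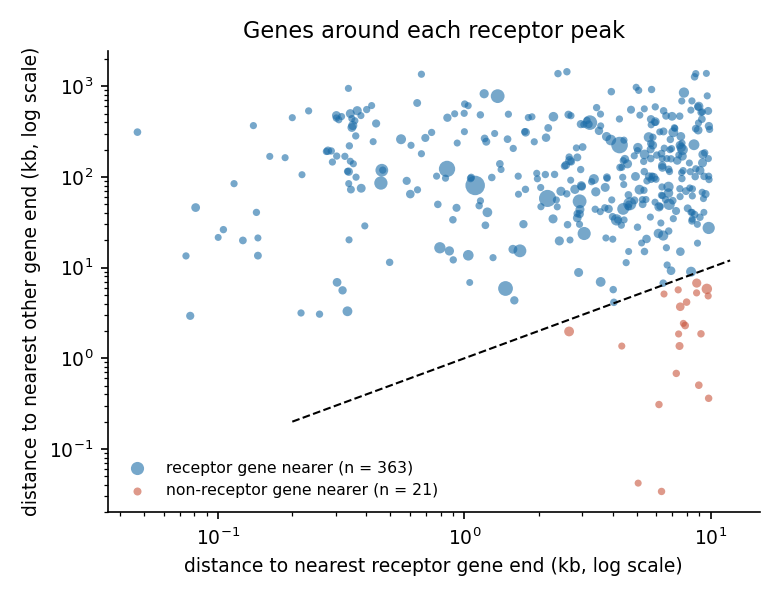
Each of the 384 receptor peaks by its distance to the nearest receptor gene end and to the nearest end of another protein-coding gene (kb, log scales), with point size growing with normalized tag count. The dashed line marks equal distances: 21 peaks lie below it, and the points of the highest peaks lie above it.

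Receptor clusters were formed by joining receptors with gaps of at most 500 kb into runs of at least 5 genes. This gave 45 clusters with 1407 of the receptor genes, and all 45 had at least 1 receptor peak. The clusters together spanned 54.3 Mb and held 825 peaks of any kind, or 15.2 per Mb (14.2 to 16.3). Per cluster the density ran from 4.91 to 49.5 per Mb. Its interval lay wholly below the 27.5 per Mb of chromosomes 1 to 19 in 24 clusters and wholly above it in 1. Of the 365 receptor peaks in clusters, 339 lay between the first and the last receptor and 26 on the flanks. The 51 receptors outside clusters had 19 peaks, near 16 of them.

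The share of receptors with a peak differed between the clusters with the most peaks. The largest, from Olfr987 to Olfr1274 on chromosome 2, spans 5.07 Mb with 222 receptors and had 35 receptor peaks, near 43 receptors (19.4%), with a median normalized tag count of 8.82 and a highest of 213.2. The chromosome 9 cluster from Olfr160 to Olfr986 had 32 peaks for 95 receptors (34.7%), with a median of 7.84 and none above 37.2. On chromosome 7, the cluster from Olfr543 to Olfr692 had 22 peaks for 126 receptors (22.2%), with a median of 7.59. On chromosome 19, that from Olfr1417 to Olfr1505 had 22 for 63 receptors (42.9%), with a median of 13.9. The median thus lay below the 10.3 of all receptor peaks in the first 3 of these clusters and above it on chromosome 19, and each of these clusters but the one on chromosome 9 held at least 1 of the 12 highest.

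The next in number, with 19 peaks each, were 2 olfactory receptor clusters of unlike density. The chromosome 11 cluster from Olfr30 to Olfr311 has 21 receptors in 0.387 Mb, of which 15 (71.4%) had a peak, and its span held 46.5 peaks per Mb (27.6 to 73.5). Among the 45 clusters, it alone had an interval wholly above 27.5 per Mb, with a lower limit close to that value. The intervals were not adjusted for the number of clusters. Its peaks ran from 4.41 to 64.2, with a median of 10.8, and the highest lay 1037 bp from Olfr313. The chromosome 17 cluster from Olfr90 to Olfr136, beside class I histocompatibility genes, has 46 receptors, of which 18 (39.1%) had a peak, at 17.6 peaks per Mb (11 to 26.6).

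**Figure D4:**
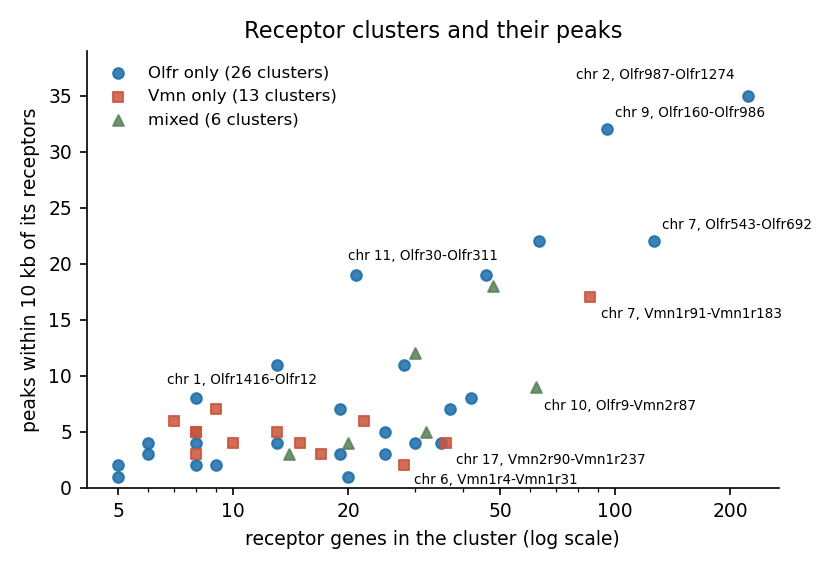
Each of the 45 receptor clusters by its number of receptor genes (log scale) and its number of peaks within 10 kb of its receptors, marked by whether it holds Olfr genes, Vmn genes or both. The chromosome 2 cluster has the most receptors (222) and the most peaks (35), and 26 clusters have 5 or fewer peaks.

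Across the 15 clusters of 30 or more receptors, which hold 990 receptor genes, the share with a peak ran from 11.1% to 43.3%. At the high end, beside the chromosome 19 cluster, stood Olfr722 to Vmn2r89 on chromosome 14 (13 of 30 receptors, 43.3%) and the mixed cluster from Olfr1370 to Vmn1r223 on chromosome 13 (18 of 48, 37.5%). At the low end stood the vomeronasal cluster from Vmn2r90 to Vmn1r237 on chromosome 17 (4 of 36, 11.1%), Olfr24 to Olfr18 on chromosome 9 (4 of 35, 11.4%) and Olfr9 to Vmn2r87 on chromosome 10 (8 of 62, 12.9%). The chromosome 17 cluster nevertheless holds the Vmn1r231 peak, the second highest of all receptor peaks. The largest vomeronasal cluster, Vmn1r91 to Vmn1r183 on chromosome 7, had a peak near 17 of 86 receptors (19.8%). Between these ends lay Olfr20 to Olfr412 on chromosome 11 (13.3%), Olfr291 to Vmn2r79 (15.6%) and Olfr467 to Olfr519 (16.7%) on chromosome 7, and Olfr1275 to Olfr1318 on chromosome 2 (27%).

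Some small clusters were dense in peaks and were singled out after their values were seen. The chromosome 4 cluster from Olfr62 to Olfr1328 has 13 receptors, of which 10 (76.9%) had a peak, and 11 receptor peaks with a median of 28.4. It holds the Olfr1341 peak of 310.2, and its next highest was 78.4, near Olfr62. The chromosome 1 cluster from Olfr1416 to Olfr12 has 8 receptors, of which 7 (87.5%) had a peak. Its 8 peaks had a median of 24.8, and its span held 49.5 peaks per Mb (19.9 to 102). These intervals, and that of the chromosome 4 cluster (23 to 77.8), include 27.5.

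Clusters with few receptor peaks were common: 26 of the 45 had 5 or fewer, and 2 had 1. The smaller of these 2, from Olfr211 to Olfr215 on chromosome 6, has 5 receptors. The chromosome 6 cluster from Olfr458 to Olfr47 has 20 receptors and 1 receptor peak, of 25 (18.6 to 32.9), near Olfr455. Its span held 13 peaks of any kind, or 16.7 per Mb (8.91 to 28.6). The vomeronasal cluster from Vmn1r4 to Vmn1r31 on the same chromosome has 28 receptors and 2 receptor peaks. These are of 69.1 near Vmn1r12 and 12.7 near Vmn1r4, the latter inside the non-receptor gene Nt5c3. The span of that cluster held 21 peaks of any kind, or 13.6 per Mb (8.39 to 20.7), beside 15.2 over all cluster spans. Of 31 runs of fewer than 5 receptors, 19 had no receptor peak, and these held at most 2 receptors each.

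Long rows of receptors without a peak within 10 kb lay inside clusters that had receptor peaks. The longest held 31 receptors in 539 kb of chromosome 10, from Olfr786 to Olfr247. On chromosome 2 there were 28 receptors in 742 kb from Olfr1166 to Olfr1206, and 23 in 470 kb from Olfr1084 to Olfr259. Among vomeronasal receptors, 20 in 1794 kb of chromosome 17 (Vmn2r98 to Vmn1r230) and 19 in 1263 kb of chromosome 6 (Vmn1r13 to Vmn1r31) had none. The Vmn1r231 peak thus lies next to a row of 20 receptors with none.

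**Figure D5:**
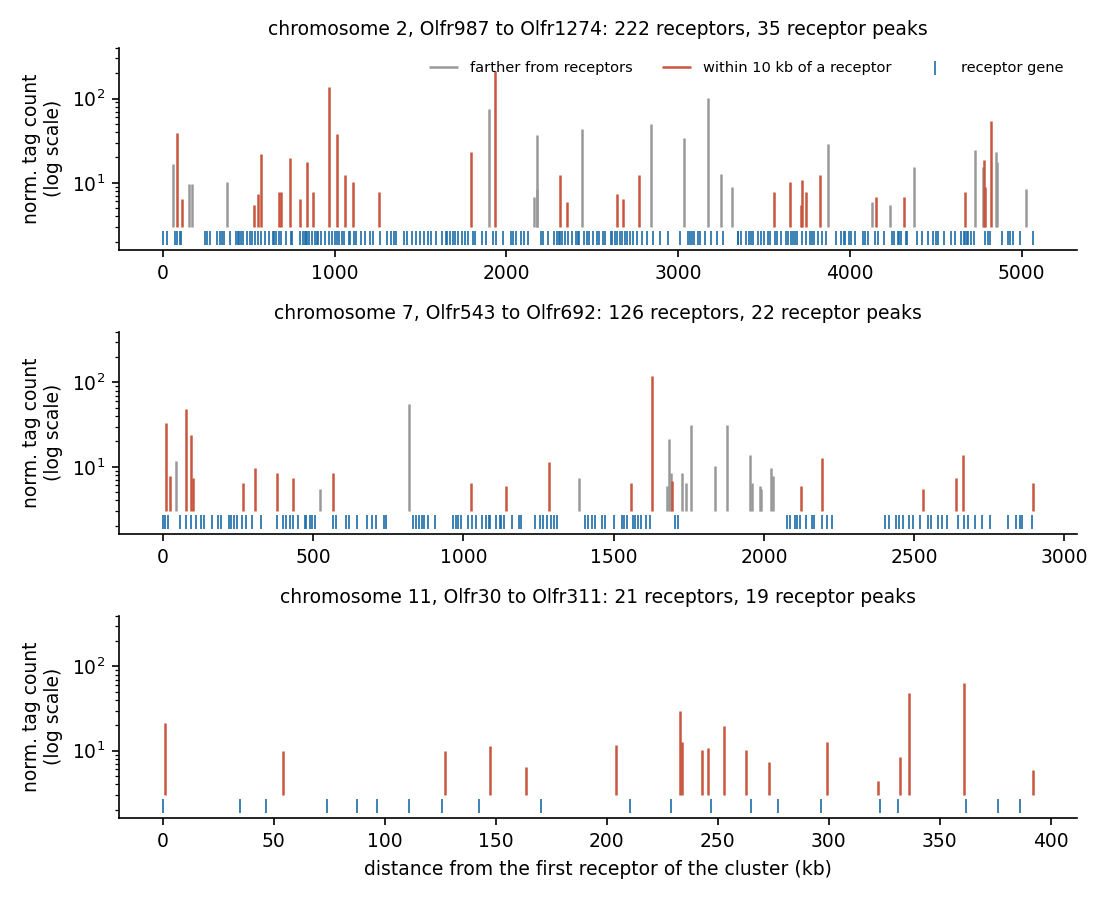
Peaks along 3 receptor clusters, by distance from the first receptor of the cluster (kb) and normalized tag count (log scale); red lines are peaks within 10 kb of a receptor, grey lines are farther ones, and blue marks are receptor genes. Tall and low peaks alternate with stretches of receptors without a peak within 10 kb. The chromosome 11 cluster, from Olfr30 to Olfr311, has 19 receptor peaks for 21 receptors.

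When receptors were joined only over gaps of at most 100 kb, 62 clusters with 1265 receptors resulted. Of these clusters, 8, with 54 receptors, had no receptor peak. The olfactory ones were Olfr24 to Olfr837 (9 receptors in 383 kb of chromosome 9), Olfr453 to Olfr444 (9 in 212 kb of chromosome 6), Olfr441 to Olfr47 (7) and Olfr857 to Olfr77 (6). The vomeronasal ones were Vmn1r21 to Vmn1r26, Vmn1r58 to Vmn1r62 and Vmn2r124 to Vmn2r95, with 6 receptors each, and Vmn1r85 to Vmn1r89, with 5. Whether a cluster is without a receptor peak therefore depends on how receptors are joined.

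Single receptors seldom had several peaks. Of the 392 receptors with a peak, 341 had 1, 43 had 2 and 8 had 3. Among those with 3, Olfr12 on chromosome 1 had peaks of 39.2, 36.3 and 29.4, and Olfr45 on chromosome 7 had 38.2, 38.2 and 17.6. Vmn1r214 on chromosome 13 had 50, 25.5 and 7.35. Olfr314 on chromosome 11 had 48 and 8.33, both inside the non-receptor gene Fam183b, and 4.41, which is nearer to Olfr315. Olfr222 had the 3 peaks inside Nlrp3. Conversely 62 peaks lay in the window of more than 1 receptor, and 19 lay within 2 kb of another receptor peak.

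Genes that work with the receptors in signalling or transport had a peak about as often as all genes. Of 19 genes of olfactory and vomeronasal signalling, 14 (73.7%) had a peak within 10 kb, beside 71.2% of all protein-coding genes. Adcy3, the adenylyl cyclase of olfactory signalling, which is also expressed outside the nose, had the highest, 183.3 (165 to 203) with 374 tags against 5, inside the gene at chr12:4206647-4206847. Gng13, a G protein gamma subunit, had 34.8 (27.2 to 43.9), and Omp, the marker of mature olfactory neurons, had 17.6 (12.4 to 24.4). Cngb1, a channel subunit, Gnao1, a G protein alpha subunit, Stoml3, Gng8 and Rtp2, a receptor transport protein, had none.

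Of 9 regulators of receptor choice, 4 (44.4%) had a peak within 10 kb, beside 71.2% of all protein-coding genes, and 7 had one within 20 kb, beside 84.5%. Lhx2, a homeodomain factor that binds receptor enhancers, had one of 92.6 (79.9 to 107), with 189 tags against 7. Ebf1, a factor of olfactory neurons and B cells, had 27.4 (20.7 to 35.6), the histone demethylase gene Kdm1a 24.5 (18.2 to 32.3) and Atf5 15.2 (10.3 to 21.6). Ebf2, Ebf3, Ebf4, Ldb1 and Emx2 had none. These genes are longer than most receptors (Lhx2 30467 bp, Ebf1 389997 bp), so their windows and those of the receptors are not alike.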

How the data were processed

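MafG binding was measured by ChIP-seq in 4 mouse liver libraries, 2 per group, and the data are 1 peak list. The submitters' processing notes name Bowtie2, HOMER and mm10, with no version given in the sources used here. The authors, per the file headers, called peaks of 200 bp with HOMER findPeaks on 1 BLRP-MafG and 1 control tag collection, at a fold over control of 10, a p-value of 1e-06, a fold over the local 10 kb of 4 with a p-value of 1e-04, a minimum distance of 400 bp and a fragment length of 168 bp. The deposited normalized tag count is a signal per 10000000 tags, the deposited fold is a ratio in which 0.5 stands for 0 control tags, and the deposited p-value and score of the peak caller were only read. There is no value per library.

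From these, whole tags were recovered (largest offset 0.1 tag), and single peaks were given exact 95% Poisson intervals and ratios exact conditional binomial ones, which cover counting error only. Ratios against 0 control tags use a floor of 3 tags. Gene positions and start windows came from RefSeq (GRCm38.p6), used with mm10 positions. Distances run from the peak midpoint to the nearer gene end. No test was run, since the list has no replicates. Counting was tested on simulated positions. Python 3.11.15, pandas 2.3.3, numpy 2.4.6, SciPy 1.17.1 and matplotlib 3.10.9 were used.

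The members and gene lists were chosen with earlier results of these data known. The peaks named are the 12 highest, the 5 nearest to a receptor end and the 3 on either side of the limit of 10 kb. The receptors named are the 5 with the most peaks, and the clusters are the 5 with the most peaks (with ties), those without a peak and those of 30 or more receptors. Others were named after their values were seen. Alternatives were a fold of 20, at least 25 tags, windows of 5, 20 and 50 kb, other ways to measure distance and other gene sets.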

Additional observations from a re-analysis of the deposited data

How the results depend on the processing

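Of 83 alternative values, 49 stayed within the limits set for a change and 34 moved. With a deposited fold of at least 20, the median normalized tag count was 12.3 (14.2 for all peaks). The share with 0 control tags was then 72.2% (64.4% of all peaks). Of receptor genes, 19.1% had a peak (56.1% of all genes). The density was 8.92 per Mb, and the other tandem families had 36 genes with a peak in place of 61. With at least 25 tags there were 168 receptor peaks with a median of 27.9 (23 for all peaks), and 37.5% had 0 control tags (31.5% of all peaks). Of receptor genes, 12.3% then had a peak (48% of all genes), the density was 5.79 per Mb and 5 clusters had no peak. A 5 kb window gave 221 peaks, 14.7% of receptor genes, 0.905% of peaks nearer to another gene, 2 clusters without a peak and 29 tandem family genes. A 20 kb window gave 43.2% of receptor genes (84.5% of all genes), 11.2% nearer to another gene, 7 of 9 regulators and 98 tandem family genes. A 50 kb window gave 856 peaks, 72.4% of receptor genes (94.9% of all genes), 26.8% nearer to another gene and 15.4 per Mb. Olfr genes alone gave 14.7 per Mb and 1 cluster without a peak. Vmn genes alone gave 95 peaks, 46.3% with 0 control tags, 2.11% nearer to another gene, 1 cluster without a peak and 10.2 per Mb. Genes of all types left 13.5% of peaks nearer to another gene, receptor genes of all types left 1 cluster without a peak, and joining over 100 kb left 8. Under each of the settings with a share for all genes, that of receptor genes was lower.

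No paired analysis was possible because the list has no value per library, and for the same reason no replicate was left out. The depth limits single low peaks: the median receptor peak rests on 21 tags, and the lowest on 9.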

Other observations

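Receptor pseudogenes and other receptor gene types, which the choice of protein-coding genes leaves out, were near peaks about as often as the coding receptors. Of 585 such genes on chromosomes 1 to 19, 168 (28.7%) had a peak within 10 kb. Of the peaks near them, 122 had no coding receptor within 10 kb, with a median normalized tag count of 10.1 and a highest of 295, near Vmn2r-ps62. On the X chromosome, 1 peak, of 16.2, lay near the 7 receptors.

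Other families of tandem genes, with median lengths from 833 to 4009 bp, had a share of members with a peak between 17.1% and 45.5%. That share was 71.2% over all protein-coding genes and 38.9% over other genes of receptor-like model length, which Defb and Mup exceeded. Trace amine-associated receptors (Taar), which also act in the nose, had a peak near 5 of 15 genes (33.3%). Bitter taste receptors (Tas2r) had one near 6 of 35 (17.1%), and formyl peptide receptors (Fpr) near 2 of 7 (28.6%). Keratin-associated proteins (Krtap) had one near 19 of 56 (33.9%) and beta-defensins (Defb) near 19 of 42 (45.2%). Major urinary proteins (Mup), which liver expresses strongly, had one near 10 of 22 (45.5%). Their densities were 25.4 peaks per Mb (8.24 to 59.2) for Taar, 7.02 (1.91 to 18) for Tas2r, 14 (1.7 to 50.6) for Fpr, 19 (11.1 to 30.5) for Krtap, 25 (15.3 to 38.6) for Defb and 17.9 (8.59 to 32.9) for Mup, beside 27.5 over chromosomes 1 to 19. None of these shares was tested against that of the receptors.

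In sequence, receptor start windows had a lower GC content than others, with a median of 35.7% in 1265 windows against 53.7% in 30131. In 300 bases, on either strand, TGACTCA was found in 7.75% of receptor windows and 5.15% of others. TGACNNNGC was found in 5.77% and 12.8%, and TGCTGA in 17% and 19.5%. The longer MAF recognition element arm was found in 0 of 1265 receptor windows and in 0.302% of others.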
